A study of Mus musculus with 60 samples.

Results

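The comparison here is between cultured mouse cortical neurons given siRNA against paxillin and cultures given scrambled (SC) siRNA, both taken at 10 days in vitro (DIV10) without added BDNF. Its members were every short-read DIV10 library whose label names paxillin siRNA or SC siRNA and no BDNF, which gave 7 of the 60 libraries of the series, 4 with paxillin siRNA and 3 with SC siRNA. All 7 came from wild-type (WT) embryonic cerebral cortex, which the labels give as taken at E18, and the siRNA was added at 2 days in vitro. The paper gives an earlier embryonic day for its mouse cultures, and the conflict is not settled here. The comparison asks what the siRNA changed in the transcriptome of maturing neurons, and how much of the difference moves with the glial and dividing cells that such cultures hold. The paxillin siRNA libraries were cultures 1, 2, 10 and 11 and the SC siRNA libraries cultures 1, 3 and 6, so culture 1 alone was in both groups. Values in every sentence below follow that order. Other libraries used beside them were DIV10 cultures that received BDNF at 20 ng/ml as well as siRNA (paxillin siRNA cultures 10 and 11, SC siRNA cultures 1, 2 and 3) and DIV5 cultures (6 with paxillin siRNA and 4 with SC siRNA).

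Paxillin is a scaffold protein of focal adhesions, the sites where integrins anchor a cell to the matrix, and it also shuttles to the nucleus. Neurons in culture extend axons, form synapses and switch on channel and transmitter genes over the days after plating, while precursor cells that were plated with them go on dividing and give rise to astrocytes and oligodendrocyte precursors. Neurons and astrocytes make their own cholesterol, because the brain does not take it up from the blood. The pathway is run by the transcription factor SREBP-2, encoded by Srebf2, which is released from the endoplasmic reticulum when sterol is low and switches on the synthesis enzymes.

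Expression is in TPM, each gene's share of the transcripts of a library corrected for its length, so the read depth of each library is unknown from these values and no counting error can be given. Differences are of log2(TPM + 1), paxillin siRNA minus SC siRNA, which understates changes of low genes. They were tested with limma on all 48 short-read libraries over the 14250 genes that averaged 1 TPM or more, and a gene is said to have risen or fallen only where its Benjamini-Hochberg adjusted p was under 0.05. Such p-values rest on a spread within groups that is pooled over all 48 libraries, most of them not at DIV10. The labels number the libraries by culture. Cell content and RNA per cell cannot be told apart in bulk libraries: fewer cells of a type and less of its RNA per cell look the same.

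Paxillin mRNA itself was not lower in the libraries labelled paxillin siRNA. Pxn (chr5:115491970-115555987, GRCm38.p6) stood at 18.8, 13.4, 13.2 and 11.5 TPM with paxillin siRNA and at 8.99, 19.9 and 9.93 TPM with SC siRNA. The paxillin siRNA libraries averaged 14.2 ± 3.14 TPM (SD, n = 4). The SC siRNA libraries averaged 12.9 ± 6.02 TPM (SD, n = 3), with 1 of them above and 2 below the whole paxillin siRNA range. The log2 difference of 0.19 gave p = 0.5714 in a 2-sided exact permutation test with 35 arrangements, in which the smallest possible p is 0.0286. Without SC siRNA culture 1 it was -0.011. With BDNF, Pxn was at 12.5 and 10.9 TPM against 9.82, 11.6 and 15.9 TPM, a difference of -0.06 (limma adjusted p = 0.977).

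At DIV5 the same label went with lower Pxn. The 6 paxillin siRNA libraries lay between 8.43 and 9.83 TPM, all below the 4 SC siRNA libraries at 12.4 to 19.9 TPM, and Pxn fell by 0.67 on the log2 scale (limma adjusted p = 0.0186). The difference at DIV10 exceeded that at DIV5 by 0.86 ± 0.27 (SE, limma adjusted p = 0.0509), just outside the threshold. A loss of Pxn mRNA therefore cannot be read from the DIV10 libraries, and every direction given below is that of libraries labelled paxillin siRNA. Of the 39 tested members of a list of paxillin relatives and focal adhesion proteins, none passed the limma test in either direction, and their median difference was 0.00 against -0.06 over all genes tested. Git1, a paxillin-binding regulator of small GTPases, was at 455, 532, 309 and 287 TPM against 226, 385 and 249 TPM and did not pass (difference 0.46). Ilk, the integrin-linked kinase, was nearly level at 167 to 256 TPM against 208 to 222 TPM.

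The 7 cultures were not alike in their levels of dividing cell and glial markers, and the differences did not follow the label. Marker lists were summed up as the mean log2(TPM + 1) of their genes. The 10 genes of dividing cells averaged 1.35, 1.42, 4.30 and 3.82 with paxillin siRNA and 3.53, 1.67 and 3.90 with SC siRNA. Paxillin siRNA cultures 1 and 2 and SC siRNA culture 3 were thus low together, and the other 4 libraries were high. Mki67, the proliferation marker Ki-67, was at 1.28, 2.10, 103 and 70.3 TPM against 59.5, 3.34 and 74.8 TPM, and Top2a, the topoisomerase of dividing cells, at 1.25, 1.298, 43.9 and 28.5 TPM against 20.4, 1.93 and 32.5 TPM. No dividing cell gene passed the test.

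Glial markers divided the libraries in much the same way. The astrocyte list averaged 6.05, 5.87, 8.03 and 8.13 against 8.35, 6.49 and 7.42. Gfap, the intermediate filament of astrocytes, was at 707, 455, 4288 and 5459 TPM against 4252, 519 and 1839 TPM, a difference of 0.05. Of 10 astrocyte markers, Fgfr3, a fibroblast growth factor receptor, alone fell, by 0.86 on the log2 scale. The oligodendrocyte precursor list averaged 3.80, 5.61, 6.85 and 7.01 against 7.61, 6.25 and 6.64, lowest in paxillin siRNA culture 1, with none of 8 genes past the threshold. Microglia markers overlapped as well, at 3.72 to 5.66 against 3.49 to 5.28, and none of 9 passed. Myelinating oligodendrocyte markers also gave no call among 7 tested. Endothelial markers, led by Cldn5, the claudin of brain vessels, were near the floor in every library (list means 0.15 to 0.56), as were the globins and Alas2 of red blood cells (0.20 to 0.57).

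Pan-neuronal markers were expressed in every library, beside the glial markers above, so these were mixed cultures. The 10 pan-neuronal markers averaged 5.54, 6.28, 6.87 and 6.81 with paxillin siRNA and 7.15, 6.71 and 7.04 with SC siRNA, lowest in paxillin siRNA cultures 1 and 2. Their median difference was -0.57 and 1 of 10, Syt1, fell. The glutamatergic list averaged 5.81, 6.57, 6.65 and 6.69 against 6.98, 7.16 and 7.11, with no overlap, but only Camk2a of its 8 genes fell. The GABAergic list varied most, at 2.02, 2.03, 4.71 and 5.93 against 6.28, 3.57 and 6.24. Gad1, the enzyme that makes GABA, was at 2.17, 2.35, 17.1 and 51.7 TPM against 90.1, 15.4 and 54.8 TPM, and it fell by 2.12 on the log2 scale (limma adjusted p = 0.0482). That fall was -4.81 among the 3 libraries numbered S68, S73 and S74 and 0.028 among those numbered S4, S5, S15 and S32, so it had no fixed direction across these ranges, which are described next.

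**Figure D1:**
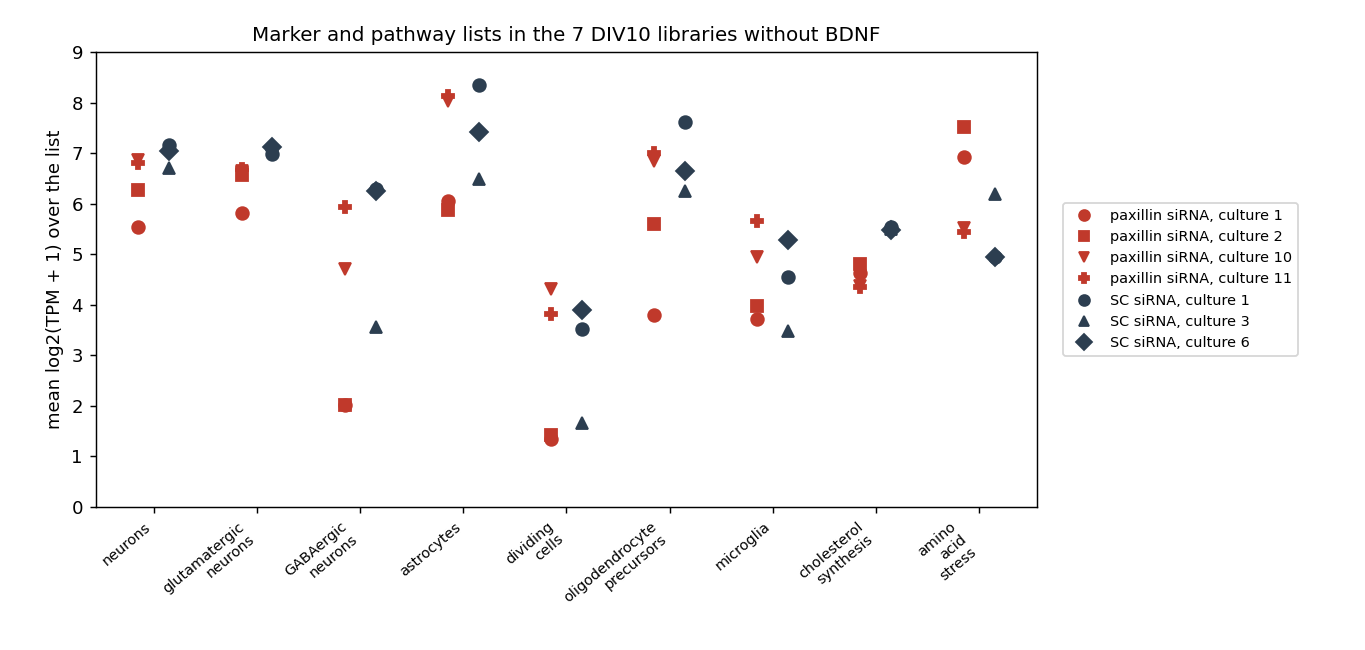
Mean log2(TPM + 1) of 9 gene lists (x axis) in each DIV10 library without BDNF, red for paxillin siRNA and dark blue for SC siRNA, with 1 symbol per culture number. Dividing cell, astrocyte and GABAergic levels overlap between the groups, with paxillin siRNA cultures 1 and 2 and SC siRNA culture 3 low, while the cholesterol synthesis list lies at 4.36 to 4.80 against 5.47 to 5.54.

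The library numbers in the column names fall into a high and a low range. Numbers S68, S73 and S74 were SC siRNA culture 1 and paxillin siRNA cultures 1 and 2. Numbers S4, S5, S15 and S32 were paxillin siRNA culture 11, SC siRNA cultures 3 and 6, and paxillin siRNA culture 10. What the numbers stand for is not given in the sources used here. Low numbers recur: S4 is also an SC siRNA DIV5 library of culture 3, and S5 a BDNF library of paxillin siRNA culture 11. They therefore come from more than 1 numbering, and whether the libraries of the low range share one is not known. The libraries most alike over the tested genes were paxillin siRNA cultures 10 and 11 (Pearson r 0.9887 across genes) and the least alike were paxillin siRNA culture 1 and SC siRNA culture 1 (0.8493). The closest library to SC siRNA culture 3 was paxillin siRNA culture 2 (0.9717), from the other group.

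Marker levels of glial, dividing and GABAergic cells ran in opposite directions in the 2 ranges. In the high range, paxillin siRNA minus SC siRNA, the list medians were -2.26 for astrocytes, -2.08 for dividing cells, -2.87 for oligodendrocyte precursors and -4.27 for GABAergic neurons. In the low range they were 0.98, 1.32, 0.50 and 0.54 in the same order. The main gene groups below are therefore given over all 7 libraries, within each range, and in fits with the astrocyte and dividing cell lists as 2 terms or with oligodendrocyte precursors as well as 3 terms. The single SC siRNA library of the high range was assumed to vary like the other groups.

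Over all 7 libraries, 367 of 14250 genes passed the limma test, 57 higher (0.4%) and 310 lower (2.18%). Libraries of the groups did not overlap for 481 genes with every paxillin siRNA library above (3.38%) and for 784 genes with every one below (5.5%). Of the called genes, 35 of the 57 rises and 204 of the 310 falls did not overlap. Rescaling the libraries by median ratio size factors moved the median of all genes from -0.06 to 0.03 and gave 155 rises and 135 falls, so the excess of falls depends on the scaling. Paxillin siRNA culture 1 was the lowest of its group in 276 of the 310 falls, and SC siRNA culture 1 was the highest of its group in 210 of them. The same counts were not taken over all genes tested, so these do not show how far either library stands out.

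The number of calls rested on single libraries. Leaving out SC siRNA culture 1 left 3 genes, Cntf, Hes5 and Pcdhgc4, leaving out paxillin siRNA culture 1 left 9, culture 2 left 11 and SC siRNA culture 6 left 35. Leaving out paxillin siRNA culture 10, culture 11 or SC siRNA culture 3 raised it to 2079, 2305 and 2659. Of the 55 called genes named by rule here, 53 lost the call without SC siRNA culture 1, 53 without paxillin siRNA culture 1, 50 without culture 2 and 47 without SC siRNA culture 6, and only Cntf and Hes5 lost it in none of the 7. With the astrocyte and dividing cell lists as 2 terms, 1166 genes passed, 327 higher (2.29%) and 839 lower (5.89%), and all 367 genes were among them. The list genes used as terms were themselves among the genes tested. With the oligodendrocyte precursor list as a further term, 84 rose (0.589%) and 101 fell (0.709%), and 108 of the 367 were kept. Within the high range 2229 rose (15.6%) and 3390 fell (23.8%), against 38 (0.267%) and 7 (0.0491%) within the low range. When the spread was taken from the 7 libraries alone no gene passed the adjusted limma threshold, with 1028 at an unadjusted p under 0.05.

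The largest rise was that of Cntf, which encodes ciliary neurotrophic factor, a cytokine of the IL-6 family made by glia that signals through STAT3. Cntf (chr19:12763528-12765632) was at 30.2, 150, 54.4 and 40.5 TPM with paxillin siRNA and at 4.58, 13.5 and 5.75 TPM with SC siRNA. Every paxillin siRNA library was above every SC siRNA library, a condition of the rule that picked the largest rises. The difference was 2.81 ± 0.42 (SE, limma adjusted p = 0.00038), or 7.01-fold on the TPM + 1 scale. It was 3.62 in the high range, 2.28 in the low range and 3.04 with 3 terms, and it passed the test without any of the 7 libraries in turn. The call was lost when the spread was taken from the 7 libraries alone.

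With BDNF, Cntf was at 39.6 and 32.2 TPM against 3.92, 3.78 and 19.8 TPM, again without overlap, with a difference of 2.22 (limma adjusted p = 0.144). At DIV5 the difference was -0.13, and the DIV10 difference exceeded it by 2.94 (limma adjusted p = 0.0063). The predicted gene Gm44505 overlaps Cntf and its neighbour Zfp91, so how reads were divided among them is uncertain. Gm44505 was at 0.0490 to 1.51 TPM and Zfp91, a zinc finger gene, at 83.04 to 134 TPM in the 7 libraries. Of 17 tested genes in the list of CNTF, LIF and STAT3 signaling, Cntf alone passed, and the list median was 0.19. Il6st, the shared receptor gp130, was at 121, 58.5, 110 and 80.8 TPM against 113, 55.2 and 56.4 TPM and was not called.

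Hes5 was lower in both ranges of library numbers. Hes5 (chr4:154960626-154962372) encodes a repressor switched on by Notch that keeps precursor cells undifferentiated and is also made by astrocytes. It was at 7.58, 11.6, 13.6 and 25.1 TPM against 62.2, 52.8 and 65.4 TPM. All 4 paxillin siRNA libraries were below all 3 SC siRNA libraries, a condition of the rule that picked the largest falls. Hes5 fell by 2.09 ± 0.31 on the log2 scale (SE, limma adjusted p = 0.00038), and stayed past the threshold without each of the 7 libraries in turn. This call too was lost when the spread was taken from the 7 libraries alone.

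The difference of Hes5 was -2.60 in the high range, -1.61 in the low range and -1.70 with 3 terms. Among the 10 neural progenitor markers Hes5 alone fell. Sox2, a factor of neural precursors, was at 418, 507, 843 and 934 TPM against 616, 564 and 708 TPM (difference 0.03). Vim, the intermediate filament vimentin, was at 177, 94.6, 1175 and 1150 TPM against 458, 181 and 291 TPM (difference 0.43). With BDNF, Hes5 was at 25.4 and 49.1 TPM against 47.5, 60.0 and 42.3 TPM and overlapped, a difference of -0.47.

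Cholesterol synthesis genes were lower in all 4 paxillin siRNA cultures. Of 22 tested genes, 8 fell, against 2.18% of all genes tested, and none rose. All 22 had a negative difference, with a median of -1.008 against -0.06 over all genes. In 10 of the 22 every paxillin siRNA library was below every SC siRNA library, against 5.5% of all genes tested. The list averaged 4.63, 4.80, 4.37 and 4.36 with paxillin siRNA and 5.54, 5.50 and 5.47 with SC siRNA. The SC siRNA cultures were thus nearly level, and the paxillin siRNA cultures all lay lower. The summed TPM of the list was 679.8 to 1102 with paxillin siRNA and 1710 to 1962 with SC siRNA.

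Srebf2, the regulator of the pathway, was at 45.8, 51.2, 27.5 and 33.3 TPM against 95.8, 82.1 and 89.0 TPM. The groups were far apart and Srebf2 fell by 1.19 ± 0.23 on the log2 scale (SE, limma adjusted p = 0.013). It kept its call without paxillin siRNA culture 1 or 2 and lost it without SC siRNA culture 1.

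Sqle, squalene epoxidase, was at 40.5, 56.0, 39.8 and 32.5 TPM against 119.5, 76.8 and 122 TPM and fell by 1.31. Cyp51, the sterol demethylase, was at 29.8, 36.9, 33.2 and 28.9 TPM against 103, 55.3 and 95.0 TPM and fell by 1.32. In both genes the highest paxillin siRNA library was below the lowest SC siRNA library. Tm7sf2, a sterol reductase, fell by 1.24, and Dhcr7, the reductase that makes cholesterol from its last precursor, by 1.21. Neither overlapped between the groups.

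The feedback and entry genes of the list behaved less evenly. Insig1, the sterol sensor that holds SREBPs back and is itself their target, was at 309, 115, 29.96 and 34.1 TPM against 184, 216 and 167 TPM. Paxillin siRNA culture 1 was the highest of all 7 and cultures 10 and 11 were the lowest, and the gene was not called (difference -1.26, limma adjusted p = 0.089). Hmgcs1, a synthase early in the pathway, was at 206, 260, 108 and 96.8 TPM against 223, 634 and 312 TPM and overlapped between the groups, with a difference of -1.19 (limma adjusted p = 0.096).

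The list median of this pathway was nearly the same in both ranges of library numbers. The high range holds a single SC siRNA library, and the cause of the decrease was not tested. The list median was -1.06 in the high range and -1.17 in the low range. In the low range 4 of 22 were called lower, against 0.0491% of all genes. With 2 terms for cell content the median was -1.15 and 15 of 22 fell, against 5.89% of all genes. With 3 terms it was -1.15 and 7 fell, against 0.709%. Rescaling by size factors left 5 falls and a median of -0.90. Adding GABAergic content in place of oligodendrocyte precursors gave -0.97 with 4 falls. The counts, unlike the medians, rested on single libraries: without SC siRNA culture 1 none of the 22 was called and the median was -1.02, and without paxillin siRNA culture 1 or 2 the counts were 3 and 2. Over the 7 libraries left out in turn the median stayed between -0.87 and -1.13.

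**Figure D2:**
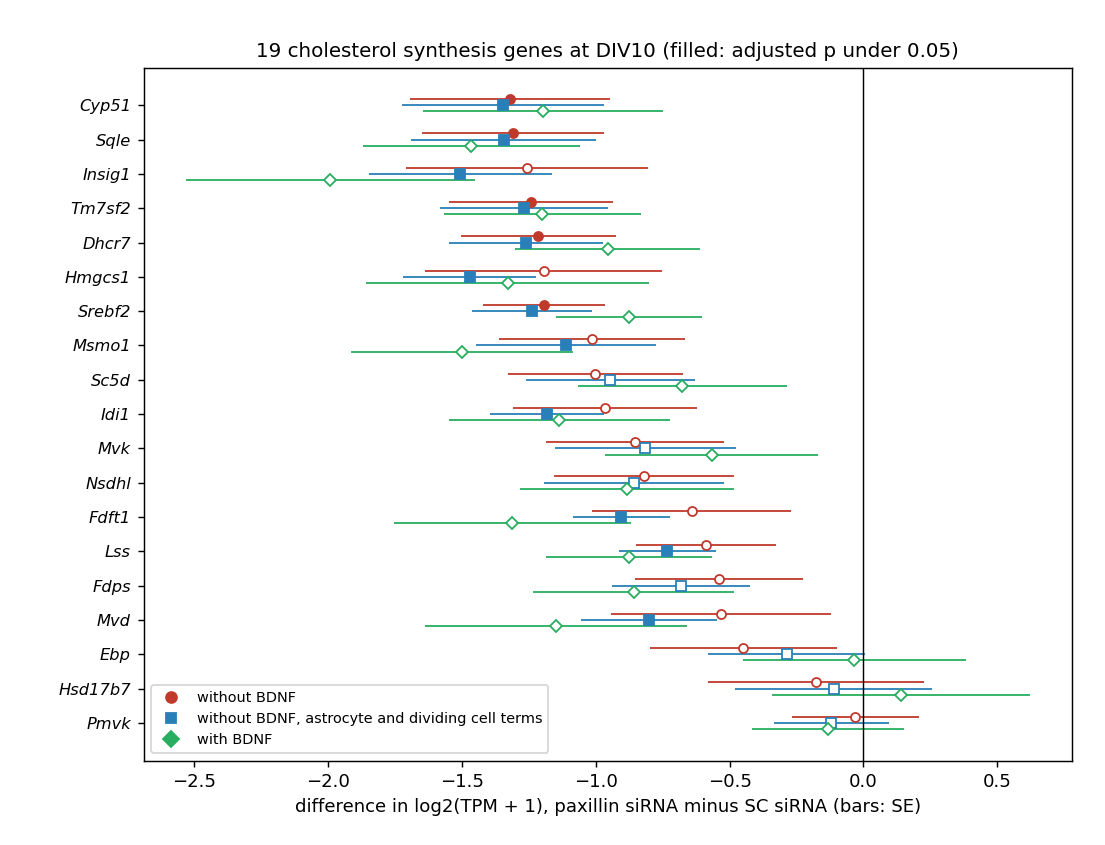
Differences in log2(TPM + 1) of 19 of the 22 cholesterol synthesis genes, paxillin siRNA minus SC siRNA, with SE bars, for DIV10 without BDNF (red circles), the same with astrocyte and dividing cell terms (blue squares) and DIV10 with BDNF (green diamonds). Filled symbols passed the limma test. All 19 red points lie below 0, 5 of them filled, and no green point is filled although 18 of 19 lie below 0.

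In the separate DIV10 libraries with BDNF, the cholesterol list averaged 4.65 and 4.59 with paxillin siRNA and 5.61, 5.88 and 5.27 with SC siRNA, again without overlap. The median difference was -1.05 and 21 of 22 genes were negative, but none was called. Cultures 1, 3, 10 and 11 are numbered in both sets, and whether libraries of the same number share a culture is not given in the sources used here. At DIV5 the list went the other way, with a median of 0.58, all 22 genes positive and 2 called higher. The DIV10 difference was below that at DIV5 in 15 of the 22 by limma. The change from DIV5 was -2.037 for Cyp51 and -1.999 for Sqle.

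Promoter sequence is shown for the 4 called cholesterol genes that the RefSeq table holds (GRCm38.p6), each as the 250 bases before the start site, 5′ to 3′ on the strand of the gene. Srebf2 is at chr15:82147019-82147268 (+), Cyp51 at chr5:4104698-4104947 (-), Tm7sf2 at chr19:6067851-6068100 (-) and Dhcr7 at chr7:143822917-143823166 (+). Capitals mark the letters CCAAT, the core bound by NF-Y, and GGGCGG, the core bound by Sp1, on either strand (ATTGG and CCGCCC on the other). NF-Y and Sp1 are the known partners of SREBP at sterol-responsive promoters.
Srebf2: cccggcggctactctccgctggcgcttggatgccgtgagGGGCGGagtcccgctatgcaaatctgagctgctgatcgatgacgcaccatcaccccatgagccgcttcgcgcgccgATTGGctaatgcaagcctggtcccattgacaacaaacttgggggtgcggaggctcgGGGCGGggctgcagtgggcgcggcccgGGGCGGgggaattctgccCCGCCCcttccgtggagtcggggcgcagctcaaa
Cyp51: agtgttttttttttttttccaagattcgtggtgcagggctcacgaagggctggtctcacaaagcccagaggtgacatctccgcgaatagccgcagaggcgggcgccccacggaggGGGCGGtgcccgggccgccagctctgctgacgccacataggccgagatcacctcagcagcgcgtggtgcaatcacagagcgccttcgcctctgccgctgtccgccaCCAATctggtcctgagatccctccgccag
Tm7sf2: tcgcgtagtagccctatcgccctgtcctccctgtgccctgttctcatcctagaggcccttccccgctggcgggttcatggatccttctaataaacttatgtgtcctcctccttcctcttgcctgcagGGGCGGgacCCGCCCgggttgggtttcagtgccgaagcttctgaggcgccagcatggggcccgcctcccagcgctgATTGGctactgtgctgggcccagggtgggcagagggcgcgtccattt
Dhcr7: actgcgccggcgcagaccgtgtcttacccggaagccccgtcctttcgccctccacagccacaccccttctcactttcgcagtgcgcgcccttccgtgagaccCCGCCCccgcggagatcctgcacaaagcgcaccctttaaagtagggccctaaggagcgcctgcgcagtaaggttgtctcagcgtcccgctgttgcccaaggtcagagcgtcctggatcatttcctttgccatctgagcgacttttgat

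CCAAT was present in 3 of the 4 and GGGCGG in all 4. Over the list, 16 of 23 promoters were in the table, and 15 of the 16 held CCAAT, Dhcr7 being without it, against 34.5% of all 27025 promoters of this length. GGGCGG stood in 15 of the 16, Pmvk being without it, against 32.9%. The sterol element letters TCACCCCAC, searched on both strands, were in 1 of the 16, Hmgcs1, against 0.466%. The motifs do not overlap in letters. The shares of all promoters are over the whole RefSeq table and not over the genes tested here. A match is a description of these letters and not a bound site.

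Lipid genes outside that list included one of the largest falls. Scd1 (chr19:44394450-44407709), the desaturase that makes oleate from stearate and a target of SREBPs, was at 88.6, 70.2, 76.4 and 56.2 TPM against 1039, 118 and 521 TPM. The paxillin siRNA libraries were close together and all below the SC siRNA libraries, which were spread widely. Scd1 fell by 2.46 ± 0.56 (SE, limma adjusted p = 0.031), with -3.70 in the high range and -1.90 in the low range. The call was lost without paxillin siRNA culture 1 or 2 or without SC siRNA culture 1 or 6.

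**Figure D3:**
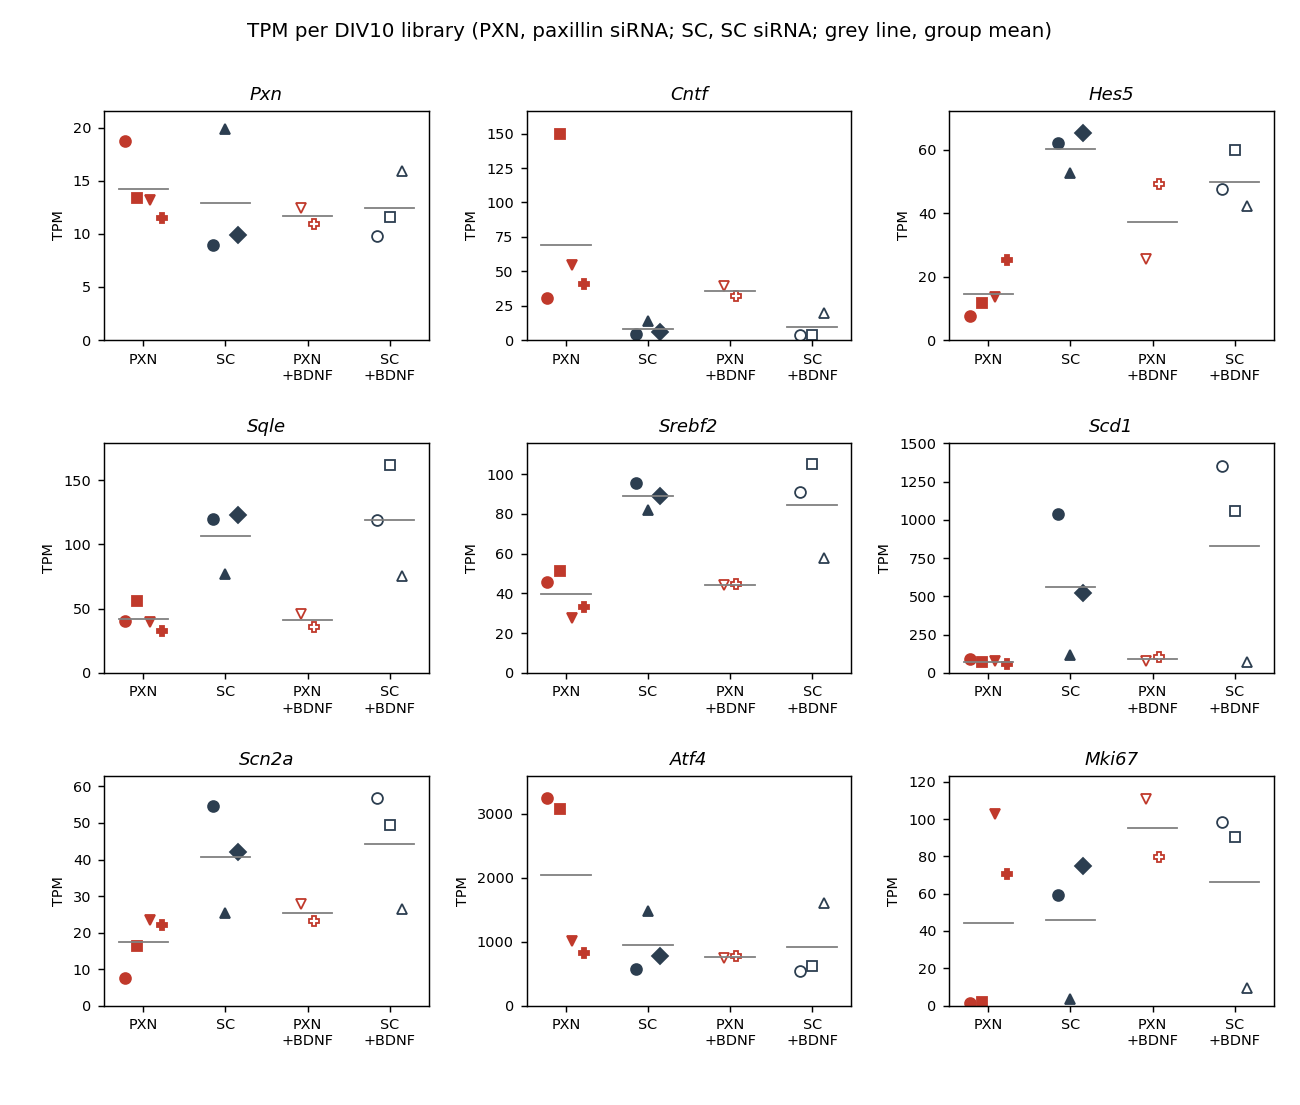
TPM of 9 genes in each DIV10 library, in panels with 4 groups on the x axis (PXN, paxillin siRNA; SC, SC siRNA; each without and with BDNF); symbols are culture numbers, open with BDNF, and grey lines are group means. Cntf, Hes5, Sqle, Srebf2 and Scd1 do not overlap between the groups without BDNF, whereas Pxn, Atf4 and Mki67 do, and Mki67 is at most 3.34 TPM in 3 of the libraries without BDNF.

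Channel and synapse genes fell in part, unevenly between cultures. Of 31 voltage-gated channel genes 9 fell, against 2.18% of all genes tested, and none rose. All 31 differences were negative and the median was -0.94. Scn2a (chr2:65620764-65767447), the sodium channel of the axon initial segment of excitatory neurons, was at 7.62, 16.4, 23.5 and 22.01 TPM against 54.6, 25.4 and 41.9 TPM and fell by 1.22. Scn8a, the sodium channel of mature nodes, fell by 1.26, Scn1a, that of inhibitory neurons, by 1.22, and Kcnc1, a potassium channel of fast-spiking cells, by 1.15. The list median was -1.88 in the high range and -0.30 in the low range, where none was called. With 2 terms for cell content 21 of 31 fell (median -0.88), against 5.89% of all genes. With 3 terms 3 fell (-0.89), against 0.709%, and after rescaling by size factors 5 fell. With BDNF the median was -0.47, with 30 of 31 negative and none called.

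Presynaptic release genes gave 7 falls among 31, against 2.18% of all genes tested, and a median of -0.81. Syt1, the calcium sensor of fast release, was at 7.15, 11.4, 18.4 and 17.7 TPM against 61.0, 20.2 and 37.3 TPM and fell by 1.42. Syt2, its relative in fast inhibitory terminals, was at 0.115, 0.155, 0.620 and 1.13 TPM against 16.8, 0.694 and 6.33 TPM and fell by 2.06, with SC siRNA culture 3 inside the paxillin siRNA range. Unc13a, which primes vesicles, fell by 1.05, Cplx2, which clamps them, by 0.96, and Bsn, a scaffold of the active zone, by 0.95. In the high range the median was -1.26, and in the low range it was -0.21 with none called. The 7 falls became 15 with 2 terms (median -0.70), 1 with 3 terms (-0.68) and 4 after rescaling by size factors. Of all genes 5.89% fell with 2 terms and 0.709% with 3 terms. With BDNF the median was -0.16, with 20 genes negative, 11 positive and none called. Cplx2 had a positive difference there (0.66).

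Vesicular transporters had a single call, in Slc30a3 (chr5:31086106-31108244), the zinc carrier of glutamatergic vesicles. It was at 1.65, 2.86, 3.72 and 8.97 TPM against 71.6, 17.6 and 16.8 TPM, without overlap, and fell by 2.62 ± 0.65 (SE, limma adjusted p = 0.0393). Slc17a7, the main vesicular glutamate transporter of cortex, was at 158, 324, 562 and 532 TPM against 1699, 417 and 854 TPM and overlapped, with a difference of -1.26 that did not pass. Of the 7 transporter genes none was called in the low range, 2 fell with 2 terms and 1 with 3 terms. With BDNF the median was -0.87, with 6 of 7 negative and none called.

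Receptors on the receiving side also fell in part, against a share of 2.18% of all genes tested. Of 19 glutamate receptor genes, Gria2 and Grik5 fell. Gria2, the AMPA receptor subunit that limits calcium entry, was at 31.1, 52.9, 74.7 and 68.4 TPM against 126, 87.4 and 119.2 TPM and fell by 1.008, and Grik5, a kainate receptor subunit, fell by 0.63. Of 11 GABA-A receptor genes 2 fell, among them Gabrb2, a subunit of synaptic receptors, by 1.25. Of 21 postsynaptic genes 4 fell, namely Icam5, a dendritic adhesion molecule, by 1.86, Camk2a, the kinase of synaptic plasticity, by 1.40, Cacng2, the AMPA receptor partner stargazin, by 1.32, and Shank3, a scaffold, by 0.89. Every tested gene of the 3 lists had a negative difference.

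Their medians again lay in the high range. For glutamate receptors the median was -0.89 over all 7 libraries, -1.94 in the high range and -0.18 in the low range. For GABA-A receptors the medians were -1.07, -2.37 and -0.12, and for the postsynaptic list -0.54, -0.84 and -0.31, in the same order. No member of the 3 lists was called in the low range. With BDNF the medians were -0.40, -0.67 and -0.10 in the same order of lists, with 3, 2 and 5 genes positive and none called. With 2 terms the falls numbered 8 of 19, 5 of 11 and 9 of 21, against 5.89% of all genes. With 3 terms they numbered 0, 1 and 2, against 0.709%. With the GABAergic list as the third term, no member of these lists or of the channel, release and transporter lists was called. The only SC siRNA library of the high range, culture 1, had the highest means of all 7 libraries for the glutamate receptor, GABA-A receptor and postsynaptic lists (3.63, 3.83 and 6.19). Paxillin siRNA cultures 1 and 2, also in the high range, were the libraries with the lowest pan-neuronal marker levels. They also had the smallest size factors (0.785 and 0.898 against 0.949 to 1.01). Rescaling by these factors left 1 fall in each of the 3 lists. The part of the pan-neuronal marker level in the synaptic falls was not tested.

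**Figure D4:**
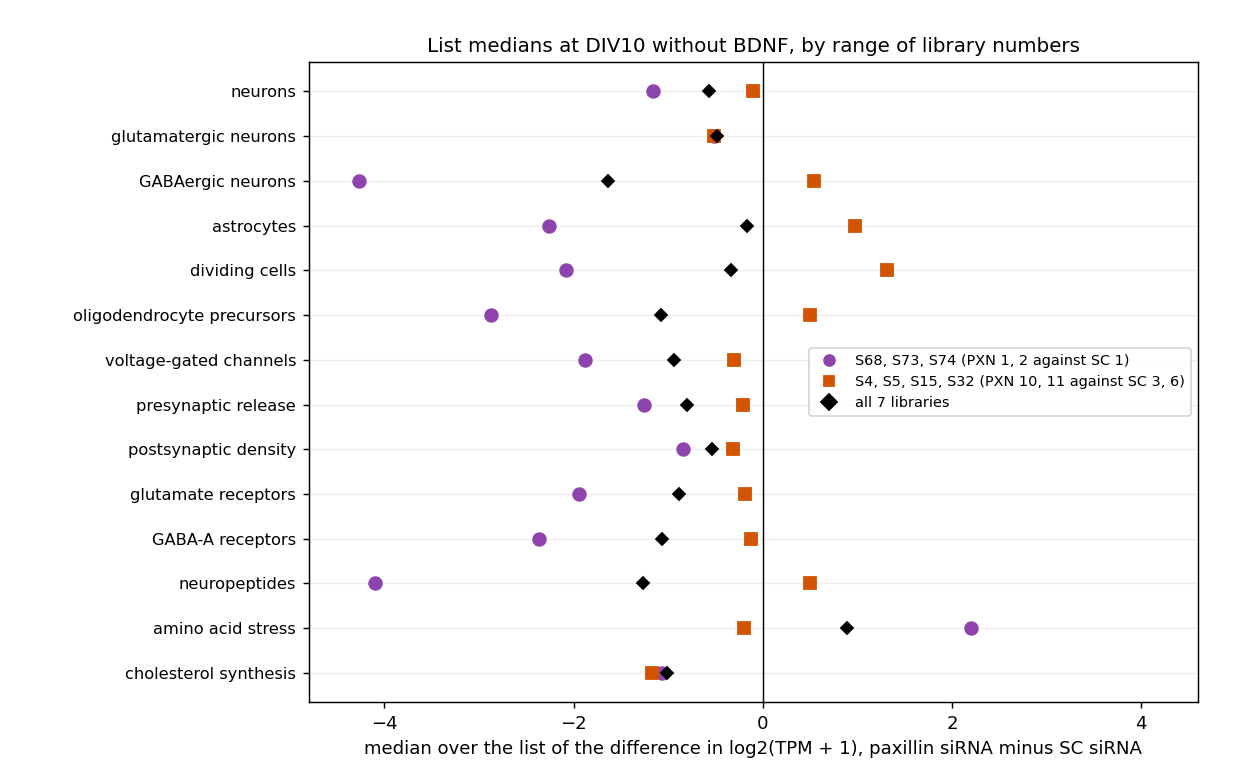
Median over each of 14 gene lists (y axis) of the log2(TPM + 1) difference, paxillin siRNA minus SC siRNA (x axis), among libraries S68, S73 and S74 (purple circles), among libraries S4, S5, S15 and S32 (orange squares) and over all 7 (black diamonds). Marker lists of dividing cells, astrocytes, oligodendrocyte precursors and GABAergic neurons lie below 0 in one range and above 0 in the other, while the cholesterol list is at -1.06 and -1.17.

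Other genes among the 15 largest falls without overlap lay outside the lists. Slc12a5, the chloride exporter KCC2 that makes GABA inhibitory in mature neurons, was at 30.01, 45.4, 59.2 and 79.6 TPM against 229, 96.7 and 141 TPM and fell by 1.52. Gjd2, the gap junction protein of neurons connexin 36, fell by 2.11, Sstr4, a somatostatin receptor, by 1.94, and Kcnk4, a leak potassium channel, by 1.59. Fgfbp3, a carrier of fibroblast growth factors, fell by 1.61, Prrt3 by 1.60 and Disp2 by 1.60. Paxillin siRNA culture 1 was the lowest library for Gjd2, Sstr4, Kcnk4, Prrt3 and Disp2.

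The remaining large falls are less certain by their locus. Gm45623 was at 1.55, 1.41, 1.12 and 3.91 TPM against 89.3, 6.74 and 7.04 TPM and fell by 2.65. Without SC siRNA culture 1 the difference was -1.48 and the gene was not called. Gm46632 lies inside Camk2a and fell by 1.76, and how its reads were told from those of Camk2a is not known. Pcdhac2, which shares its last exons with other clustered protocadherins, fell by 1.48.

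Extracellular matrix genes had 1 fall among 26, against 2.18% of all genes tested. Ncan, the brain proteoglycan neurocan of perineuronal matrix, was at 166, 157, 267 and 260 TPM against 842, 329 and 499 TPM, without overlap, and fell by 1.32 (limma adjusted p = 0.0293). The list median was -0.56, with -0.75 in the high range and -0.01 in the low range. With 2 terms 3 fell, against 5.89% of all genes, and with 3 terms 1, against 0.709%. With BDNF the median was -0.32 and none was called.

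Among splicing factors 4 of 47 fell and 1 rose, against 2.18% and 0.4% of all genes tested. The 4 that fell were neuronal: Srrm4, which turns on microexons, by 0.92, Celf3 by 0.91, Srrm3 by 0.83 and Celf5 by 0.81. Srrm4 was at 1.24, 3.12, 4.95 and 5.22 TPM against 6.07, 6.40 and 9.19 TPM, without overlap. Tra2b, a general activator of splicing, was at 76.1, 85.5, 61.0 and 60.7 TPM against 43.1, 35.4 and 58.1 TPM and rose by 0.64 (limma adjusted p = 0.0469). The median of the list was -0.17. The balance of falls over rises did not hold throughout: rescaling by size factors gave 2 rises and 2 falls, and 3 terms left no rise and 1 fall, with Srrm4, Celf3, Srrm3, Celf5 and Tra2b no longer called (limma adjusted p 0.061 to 0.102). In the low range none was called, against 0.267% of all genes higher and 0.0491% lower. With BDNF the median was 0.17, with 36 genes positive, 11 negative and none called.

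The rises beside Cntf were smaller and mixed in function. Icosl, a ligand that stimulates T cells, was at 17.7, 3.64, 17.3 and 12.9 TPM against 2.60, 2.40 and 3.48 TPM and rose by 1.68, with paxillin siRNA culture 2 just above the SC siRNA libraries. Txlnb, a taxilin, was at 9.69, 9.07, 9.09 and 4.65 TPM against 1.24, 3.17 and 1.69 TPM and rose by 1.60. Bdh2, a dehydrogenase of short-chain substrates, rose by 1.31, Msn, the membrane linker moesin, by 1.10, Retsat, a retinol saturase, by 1.010 and Renbp, an epimerase of sugar metabolism, by 0.99.

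Prdx6 and Gpx4, both peroxidases, were among the rises. Prdx6, a peroxiredoxin that repairs oxidised phospholipids, was at 261, 376, 412 and 333 TPM against 198, 160 and 129 TPM and rose by 1.09. Gpx4, the glutathione peroxidase that clears lipid peroxides, was at 566, 455, 256 and 249 TPM against 211, 217 and 178 TPM and rose by 0.83, mostly through paxillin siRNA cultures 1 and 2. Gng5 (0.97), Bmp2k (0.89), Tmem140 (0.89), Sat1 (0.88), Litaf (0.84) and Serhl (0.82) complete the 15 largest rises in log2 difference. Sat1, which breaks down polyamines, was highest in paxillin siRNA cultures 10 and 11, at 293 and 323 TPM against 116 to 157 TPM with SC siRNA.

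**Figure D5:**
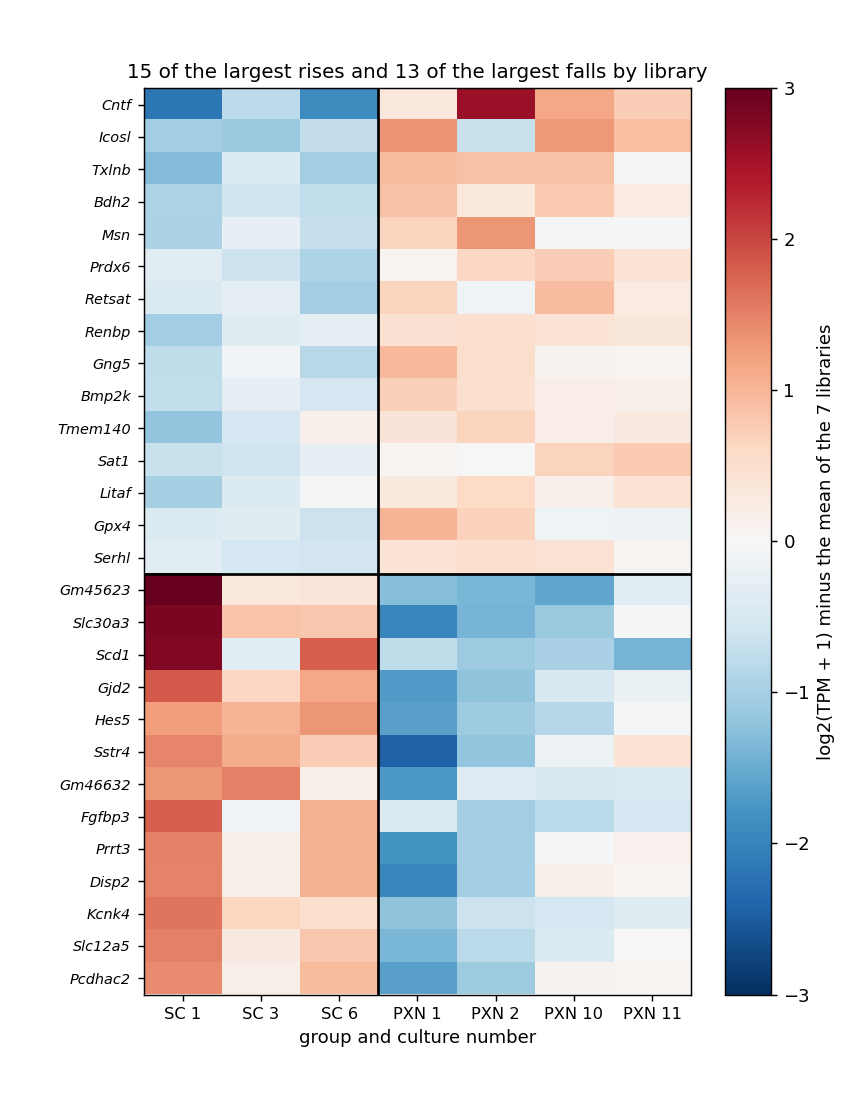
The 15 largest rises (upper block) and 13 of the 15 largest falls (lower block) among called genes whose groups did not overlap, as log2(TPM + 1) minus the mean of the 7 libraries (colour), with libraries in columns by group and culture number. Falls are deepest in PXN 1 for most genes and SC 1 is the highest library in most of the lower block.

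Amino acid stress genes were highest in paxillin siRNA cultures 1 and 2. The list holds targets of ATF4, the factor translated when amino acids run short or proteins misfold. It averaged 6.93, 7.52, 5.51 and 5.44 against 4.95, 6.20 and 4.95, so SC siRNA culture 3 was above paxillin siRNA cultures 10 and 11. All 20 genes had a positive difference, with a median of 0.89. Against 0.4% of all genes tested, 1 of the 20 rose. That was Mthfd2, a mitochondrial folate enzyme, at 32.9, 41.2, 16.3 and 9.74 TPM against 5.15, 14.9 and 7.10 TPM (difference 1.295, limma adjusted p = 0.0435). Atf4 was at 3253, 3073, 1016 and 821 TPM against 574, 1475 and 773 TPM and did not pass (0.97, limma adjusted p = 0.087). The list median was 2.21 in the high range, -0.20 in the low range, where none rose, and -0.27 with BDNF. With 2 terms 4 rose, against 2.29% of all genes, and with 3 terms 2, against 0.589%. With the stress list itself as a term, 9 genes passed, among them Cntf, Hes5 and Srebf2, and the cholesterol median was -1.05 with 2 of 22 called lower.

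Several lists gave no call by limma in either direction. These were the 25 activity-regulated genes (median -0.29), 19 cortical layer factors (-0.24), 20 genes of immature neurons and axon growth (-0.33), 15 neuropeptides (-1.27) and 17 interferon-stimulated genes (0.27). Pericyte and fibroblast markers had a median of 0.03 over 8 genes and ependymal and choroid plexus markers 0.39 over 2. The neuropeptides were the most uneven of these, at -4.10 in the high range and 0.50 in the low range. Junb, an immediate early factor, was at 805, 322, 124 and 265 TPM against 132, 272 and 107 TPM.

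With BDNF, 3 of the 14250 genes passed (0.0211%), Tmem215 (-2.32) and Kitl (-1.77) lower and Etnppl (3.25) higher, with 1023 at an unadjusted p under 0.05. No gene passed the limma test of the difference without BDNF minus that with BDNF, and 885 had an unadjusted p under 0.05. The 57 genes called higher without BDNF had a median of 0.78 there and 0.30 with BDNF, and the 310 called lower -0.96 and -0.35. Over all genes tested the medians were -0.06 and 0.03. The called genes were chosen by their difference without BDNF, so the smaller medians with BDNF do not show a weaker effect. Of the 367, 2 were called with BDNF. SC siRNA culture 3 with BDNF again stood with the libraries low in dividing cell markers, at 9.51 TPM of Mki67 against 79.9 to 111 TPM in the other 4.

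Against DIV5, where 880 genes passed (6.18%), the siRNA difference at DIV10 differed for 821 genes (5.76%), 513 of them more positive at DIV10 and 308 more negative. They included 155 of the 367 genes called at DIV10, though the comparison at DIV10 enters both counts. Hes5 had a difference of -0.24 at DIV5 and changed by -1.85 to DIV10, and Txlnb -0.84 and 2.44. Among the lists, 10 of 31 voltage-gated channel genes were more negative at DIV10 than at DIV5.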

How the data were processed

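RNA from cultured mouse cortical neurons was sequenced as poly(A) libraries (paired-end, short reads). The deposited values are TPM per gene symbol, made by the authors with tools that the submitters' notes list as STAR 2.7.10 and RSEM 1.3.3 on GRCm38 (mm10). Every library sums to the same total, so the depth of each library is not recoverable. Of 39756 genes, the 14250 that averaged 1 TPM or more across 48 libraries were tested in R 4.3.3 with limma 3.58.1 (lmFit, eBayes with trend) on log2(TPM + 1), 1 coefficient per group, threshold 0.05 after Benjamini-Hochberg adjustment. Pxn was tested by exact permutation. Figures were drawn with Python 3.11.15 and matplotlib 3.10.9. The script was tested on generated data first.

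Groups came from the labels. The members and lists were chosen with earlier results of these data known. Named were Pxn, the 15 largest rises and falls among called genes without overlap, up to 5 called members per list, and the 2 most abundant members of lists with fewer than 2 calls; Srebf2, Tm7sf2, Dhcr7, Insig1, Hmgcs1, Pcdhgc4, the 3 genes called with BDNF and the neighbours of Cntf were added after their values were seen. Alternatives were another pseudocount, filter, scaling, replicate block, terms for cell content, library ranges and leaving out each library. The split by low library numbers, the GABAergic and stress terms, the fits of DIV10 libraries and those without paxillin siRNA cultures 1 and 2 were chosen after seeing the data. Gene coordinates and promoters are RefSeq's on GRCm38.p6, matched by symbol for 14249 of the 14250 genes. Some list members stayed in the fits, counts and medians but are not reported here by name. The siRNA sequences are not used here, and 12 other libraries of the series were not analysed here.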

Additional observations from a re-analysis of the deposited data

Results flagged for a closer look

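Among the 4 paxillin siRNA libraries, 7 of the 129 named genes and list means had 1 library set far apart, by the share of the whole range taken by its gap to the nearest other library (Dixon's test, 95% limit). The shares were 0.906 for Txlnb (culture 11 low), 0.921 for Gm46632 (culture 1 low), 0.906 for Gpr17, a receptor of oligodendrocyte precursors (culture 1 low), 0.834 for Foxj1 (culture 2 low), 0.944 for Pou3f3, a cortical factor (culture 2 high), 0.835 for Sparc (culture 2 low) and 0.867 for the glutamatergic list mean (culture 1 low). Chance alone gives such a gap in about 1 of 20 groups.

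The siRNA difference at DIV10 differed from that at DIV5 for 821 genes by limma, and 26 of them are named. The change from DIV5 to DIV10 in log2 difference was positive for Cntf (2.937), Txlnb (2.437), Icosl (2.036), Prdx6 (1.879), Bdh2 (1.872), Renbp (1.682), Retsat (1.47), Msn (1.462), Serhl (1.27), Bmp2k (1.146), Gng5 (1.104), Litaf (0.9868) and Sat1 (0.8986). It was negative for Gjd2 (-2.482), Fgfbp3 (-2.136), Cyp51 (-2.037), Sqle (-1.999), Hes5 (-1.85), Gabrb2 (-1.836), Scn2a (-1.391), Unc13a (-1.36), Cacng2 (-1.36), Gria2 (-1.319), Cplx2 (-1.133), Celf3 (-1.089) and Celf5 (-1.019). Whether DIV5 and DIV10 libraries of the same number share a culture is not given in the sources used here, and what separates the days besides age was not tested.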

How the results depend on the processing

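All 55 called named genes kept their direction under all 26 alternatives, except that Gad1 was at 0.028 in the low range of library numbers. Of the 367 calls, the count became 171 with no filter, 663 with the astrocyte term, 729 with the dividing cell term, 1166 with both, 185 with 3 terms, 39 with the GABAergic list as the third, 9 with the stress term, 5705 without paxillin siRNA cultures 10 and 11, 5619 in the high range, 45 in the low range, 59 without cultures 1 and 2, 14 also without SC siRNA culture 3, 0 from the 7 libraries alone, 0 from the 12 DIV10 libraries (1428 at an unadjusted p under 0.05 by limma) and 53 from these with 2 terms. Leaving out each library gave 3 to 2659. Cntf and Hes5 lost their calls in both fits without terms on DIV10 libraries alone.

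The 3 calls with BDNF became 1 with pseudocount 0.1, 262 with no filter, 12 with the astrocyte term, 1 with the dividing cell term, 13 with both, 18 with 3 terms, 0 from the groups alone and 0 to 67 on leaving out each library. The 821 for DIV10 minus DIV5 became 517, 2383, 1374 and 1923 (no filter and the first 3 term fits), 0 from the groups alone and 102 to 2012 on leaving out libraries, lowest without SC siRNA DIV5 culture 4. The 0 for the BDNF comparison became 31 with no filter. Pxn ranged from -0.011 (without SC siRNA culture 1) to 0.52.

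With culture number as a replicate block the counts were 2726, 152 and 1837, Pxn was 0.11 and 338 of the 367 calls were shared. Only culture 1 was in both groups, its deviations correlated at -0.435 across genes, and the numbers were not taken to pair the libraries. With 1 TPM required over the 7 libraries the red blood cell list had no gene. Without the depth of each library, no interval for counting error can be given.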

Other observations

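Pcdhgc4, a clustered protocadherin needed for survival of cortical interneurons, was 1 of the 3 genes still called without SC siRNA culture 1. It was at 22.1, 23.7, 24.3 and 28.6 TPM with paxillin siRNA and at 51.5, 70.9 and 60.0 TPM with SC siRNA, without overlap and with little spread inside either group. It fell by 1.26 ± 0.20 (SE, limma adjusted p = 0.001), and with BDNF it was at 34.5 and 33.2 TPM against 67.7, 53.9 and 56.1 TPM (difference -0.78, limma adjusted p = 0.357). At DIV5 the difference was 0.01. It shares its last exons with the other clustered protocadherins, so its level is uncertain.

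Kitl, the ligand of the receptor KIT, was called in both DIV10 comparisons. It was at 3.70, 2.26, 4.17 and 3.13 TPM against 11.6, 9.80 and 5.04 TPM without BDNF, and at 3.07 and 2.38 TPM against 16.6, 8.79 and 10.8 TPM with BDNF. Tmem215 was called in both as well, at 2.34, 2.701, 0.844 and 1.44 TPM against 11.3, 9.83 and 2.66 TPM without BDNF, where SC siRNA culture 6 lay inside the paxillin siRNA range. Etnppl, a phospholyase of astrocytes, was at 0.382, 0.0139, 11.2 and 12.1 TPM against 1.26, 0.178 and 1.82 TPM without BDNF, and at 14.8 and 11.96 TPM against 0.266 to 0.760 TPM with BDNF. It was thus high in paxillin siRNA cultures 10 and 11 alone, and paxillin siRNA cultures 1 and 2 lay inside or below the SC siRNA range.

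Pnpla3, a lipid droplet enzyme, was at 3.78, 10.1, 6.18 and 5.58 TPM against 16.4, 25.2 and 11.9 TPM, without overlap, and fell by 1.35. Fads1, a desaturase of polyunsaturated fatty acids, was at 959, 510, 285 and 262 TPM against 715, 827 and 500 TPM and was not called over the 7 libraries (difference -0.61, limma adjusted p = 0.122). These genes were named after their values were seen.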
